A study of Mus musculus with 6 samples.

Results

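AP-1 transcription factors were followed in mouse iNKT cells (invariant natural killer T cells, innate-like lymphocytes whose receptor binds lipid antigens held by CD1d) from liver, spleen and lymph node. The members were the 9 genes Fos, Fosb, Fosl2, Jun, Junb, Jund, Atf3, Batf and Maff, found by their symbols among the 27998 genes that every library lists. All 9 were detected. The cells came from wild-type C57BL/6 mice aged 5 weeks, with no treatment, in 2 libraries for each organ (n = 2 per group). Cells with CD8 or B220 had been removed, and the rest sorted on TCR-β and binding of a CD1d tetramer. How many mice went into a library is not given in the sources used here. The p-values therefore rest on the spread between libraries of the same organ, not between mice. In each fit this spread was shared over the organs and moderated over all genes. The smallest p-values lean on that sharing and not on the 2 libraries of an organ alone. In fits with a library left out, its organ had a single library, and only the other organs gave a spread between libraries. The labels call the molecule nuclear RNA, which was not settled here.

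AP-1 is a dimer of basic leucine zipper proteins. Fos proteins (Fos, Fosb, Fosl2) pair mainly with Jun proteins (Jun, Junb, Jund), Atf3 and Batf also pair with Jun proteins, and Maff is a small Maf protein that lacks a transactivation domain. Fos, Fosb, Jun, Junb and Atf3 are immediate early genes, transcribed within minutes of signals through the T cell receptor or stress kinases, and their mRNAs are short-lived. The same genes can be induced while a tissue is being dissociated.

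After filtering, the libraries held 16532 cells (5662 liver, 5384 spleen and 5486 lymph node) and 4758138 to 10870838 UMIs (unique molecular identifiers, each 1 captured mRNA molecule). The median was 2880 to 3592 UMIs per cell in liver, 1554 to 1724 in spleen and 1470 to 1730.5 in lymph node. The median share of mitochondrial UMIs was 2.73% to 2.79% in liver, 4.07% to 4.68% in spleen and 4.53% to 5.13% in lymph node. The T cell genes Cd3e, Cd3d and Cd3g and the iNKT factor Zbtb16 were present in all 6 libraries, while the 6 measured B cell markers summed to 1.80 to 11.8 CPM in any library (counts per gene scaled to the same total in each library). Of the 10 myeloid markers, Lyz2 was at 0.599 to 12.1 CPM of all UMIs in the liver and spleen libraries against 6.83 and 82.4 in lymph node, so lymph node library 2 stood apart. Fcer1g went the other way, with 27.5 to 63.3 against 10.7 and 18.3. S100a9 was at 0 in all 6 libraries, Csf1r, Itgam, Adgre1 and S100a8 reached at most 1.22, and C1qa and C1qb were highest in lymph node library 2, at 3.78 and 4.41. The 10 markers, mostly Cst3, summed to 170 to 225 CPM of all UMIs in liver, 184 to 198 in spleen and 215 to 292 in lymph node, and their part in the members' levels was not tested. The lymph node libraries held no Xist RNA and 1365 and 1582 UMIs of Y-chromosome genes, while the other 4 libraries held Xist and no Y-chromosome UMIs. Every comparison with lymph node is therefore also a comparison between these libraries, and the 2 cannot be told apart. From 6 to 20 barcode sequences were shared by any pair of libraries.

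Sequences just upstream of 4 members are shown as examples. Fos, Fosb and Junb were called higher in lymph node than in both other organs, and Batf was called higher in liver. Fosl2, Jun, Jund and Maff were likewise called higher in lymph node than in both, and are not shown. The sequences are from RefSeq (GRCm38.p6) and read 5′ to 3′ on the strand of the gene. Each ends at the RefSeq start site or, for Fosb and Batf, where GENCODE vM21 starts the gene further upstream. All 9 members had an entry. The first transcribed bases matched a transcript for Fos, Fosb and Batf but not for Junb. The Junb positions thus rest on a start site without that match. Capitals mark TGACG on either strand, the core of the cyclic AMP response element. The Fos sequence lies at chr12:85473640-85473889 (plus strand), that of Fosb at chr7:19310052-19310295 (minus strand), that of Junb at chr8:84978749-84978998 (minus strand) and that of Batf at chr12:85686470-85686668 (plus strand).
Fos: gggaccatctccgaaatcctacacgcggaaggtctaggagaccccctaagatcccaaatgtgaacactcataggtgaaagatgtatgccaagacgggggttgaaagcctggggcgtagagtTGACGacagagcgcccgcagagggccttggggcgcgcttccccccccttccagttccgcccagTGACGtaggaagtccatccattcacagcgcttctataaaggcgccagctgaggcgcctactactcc
Fosb: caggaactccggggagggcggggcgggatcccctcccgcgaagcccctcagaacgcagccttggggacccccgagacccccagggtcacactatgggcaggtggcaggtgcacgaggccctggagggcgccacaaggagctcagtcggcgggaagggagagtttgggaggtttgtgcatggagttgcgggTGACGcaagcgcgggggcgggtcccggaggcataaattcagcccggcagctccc
Junb: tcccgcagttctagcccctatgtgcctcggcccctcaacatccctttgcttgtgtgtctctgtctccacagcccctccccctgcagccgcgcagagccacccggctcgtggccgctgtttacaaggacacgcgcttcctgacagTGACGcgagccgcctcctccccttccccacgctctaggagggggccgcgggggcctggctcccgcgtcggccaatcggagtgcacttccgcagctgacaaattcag
Batf: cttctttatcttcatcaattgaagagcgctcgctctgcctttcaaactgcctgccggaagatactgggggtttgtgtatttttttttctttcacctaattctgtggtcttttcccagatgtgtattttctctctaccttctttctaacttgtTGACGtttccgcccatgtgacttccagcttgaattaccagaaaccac
TGACG was found 2 times before Fos (from base -129 and from base -66, counted back from the RefSeq start site) and 1 time before each of Fosb (-60), Junb (-106) and Batf (-98). With Atf3 and Maff, 6 of the 9 members held it. Fosl2, Jun and Jund did not, and the start sites of Fosl2 and Jund lacked a transcript match, as for Junb. Of 32841 RefSeq promoter windows of 250 bases, 17.8% hold TGACG. The complete element TGACGTCA (1.55% of windows), the AP-1 site TGANTCA (6.75%) and the CArG box bound by serum response factor (1.47%) were not in these 4 windows; among the members, TGACGTCA was found before 1 of the 3 Maff start sites. TGACG is contained in TGACGTCA, both strands were searched, and a match in these windows is a description only.

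Fos had the largest fold of the 9 members between liver and lymph node. Levels are CPM scaled by TMM, summed over all cells of a library, and cannot tell fewer expressing cells from less RNA per cell. Fos (ENSMUSG00000021250, chromosome 12, 85473890 to 85477273, plus strand, GRCm38 with GENCODE vM21, as for the other members) was at 12.3 and 8.27 CPM in liver, with 26.3 and 22.8 in spleen, while lymph node had 562 and 583. No lymph node value was near those of the other organs, and liver lay below spleen. The log2 fold change was -5.78 (SE 0.16) for liver over lymph node (edgeR quasi-likelihood test, adjusted p 2.22e-24), which is 54.8-fold. It was -4.54 (SE 0.15, adjusted p 1.03e-21 by edgeR) for spleen over lymph node and -1.24 (SE 0.19, adjusted p 1.13e-05) for liver over spleen.

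Fosb (chromosome 7, 19302696 to 19310051, minus strand), the Fos protein best known from activated neurons and lymphocytes, was at 7.23 and 4.05 CPM in liver, with 3.39 and 2.59 in spleen, while lymph node had 73.2 and 83.5. Its log2 fold change was -3.76 (SE 0.21, adjusted p 4.40e-16 by edgeR) for liver over lymph node, while spleen over lymph node gave -4.69 (SE 0.26, adjusted p 1.12e-15). Unlike Fos, Fosb was not lower in liver than in spleen. Its log2 fold change of 0.93 for liver over spleen (SE 0.35, adjusted p 0.0507 by edgeR) just missed the threshold of 0.05, and it was called without liver library 2 (adjusted p 0.0107) or with no filter on low counts (adjusted p 0.0297). Fosl2 (chromosome 5, 32135801 to 32157842, plus strand) encodes Fra-2, a Fos protein with slower kinetics. It was at 7.76 and 11.8 CPM in liver, with 12.2 and 8.36 in spleen, while lymph node had 63.7 and 54.9. Liver and spleen overlapped (log2 fold change -0.10, SE 0.25, adjusted p 0.811), and lymph node was 6.11-fold above liver (adjusted p 2.16e-12) and 5.71-fold above spleen (adjusted p 9.47e-11, all by edgeR).

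Among the Jun genes, Junb had the largest fold between liver and lymph node, and was counted in 15114 and 15900 UMIs of the lymph node libraries. Junb (chromosome 8, 84974484 to 84978718, minus strand) restrains Jun in some settings and is needed for effector fates of T cells. It was at 381 and 398 CPM in liver, with 812 and 654 in spleen, while lymph node had 4113 and 4384. The order lymph node, spleen, liver held without overlap. The log2 fold change was -3.45 for liver over lymph node (SE 0.14, adjusted p 1.09e-19 by edgeR), -2.53 with spleen in place of liver (SE 0.13, adjusted p 3.15e-16), and -0.91 for liver over spleen (SE 0.13, adjusted p 3.83e-06).

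Jun (chromosome 4, 95049034 to 95052222, minus strand), the prototype partner of Fos, was at 83.3 and 84.8 CPM in liver, with 119 and 86.4 in spleen, while lymph node had 330.4 and 403. Lymph node was 4.36-fold above liver (adjusted p 3.15e-13) and 3.56-fold above spleen (adjusted p 2.34e-11), while liver and spleen were not called different (log2 fold change -0.29, SE 0.14, adjusted p 0.122, by edgeR), though they were without spleen library 2 (adjusted p 0.0269). Jund (chromosome 8, 70698949 to 70700616, plus strand), the Jun gene that is transcribed constitutively, was at 484 and 653 CPM in liver, with 812 and 747 in spleen, while lymph node had 1649 and 1920. It had the smallest difference of the genes higher in lymph node, 3.14-fold above liver (adjusted p 2.61e-11) and 2.29-fold above spleen (adjusted p 4.46e-08, by edgeR). Liver was below spleen (log2 fold change -0.46, SE 0.13, adjusted p 0.0121), a call lost without liver library 1 (adjusted p 0.256) or spleen library 1 (adjusted p 0.0929).

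Atf3 (chromosome 1, 191170296 to 191218039, minus strand), a stress-induced repressor, had the fewest UMIs, with 4 and 1 in liver, 0 in both spleen libraries, and 37 and 43 in lymph node. Counted in CPM, lymph node was 28.0-fold above liver (log2 fold change -4.81 for liver, SE 0.51), given as a description because Atf3 passed the filter on low counts (2.63 CPM in at least 2 libraries) only through lymph node, where it is high. On so few UMIs 1 library moved this value, to -5.83 without liver library 1 and to -4.28 without liver library 2. Against spleen, lymph node was higher by at least 26.8-fold, taking 3 UMIs over the 2 spleen libraries as the limit that a count of 0 allows. Maff (chromosome 15, 79346621 to 79359076, plus strand) was at 3.61 and 2.59 CPM in liver, with 4.95 and 1.44 in spleen, while lymph node had 38.4 and 31.2. Its log2 fold change was -3.46 (SE 0.28, adjusted p 4.83e-11 by edgeR) for liver over lymph node, while spleen over lymph node gave -3.40 (SE 0.32, adjusted p 1.66e-09), and the liver and spleen values overlapped. The value for spleen was -4.56 without spleen library 1 and -2.81 without spleen library 2.

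Batf (chromosome 12, 85686669 to 85709087, plus strand), which with Jun proteins and IRF4 opens chromatin in activated T cells, went another way. It was at 123 and 123 CPM in liver, with 80.7 and 73.8 in spleen, while lymph node had 98.8 and 93.8. Liver was highest in both libraries, 1.59-fold above spleen (log2 fold change 0.67, SE 0.12, adjusted p 0.000106 by edgeR). The log2 fold change of 0.35 for liver over lymph node (SE 0.12) was called (adjusted p 0.0178), but DESeq2 gave an adjusted p of 0.0901, thinning the libraries to the smallest total gave 0.0807, and the adjusted p was 0.0533 to 0.141 without liver library 1, lymph node library 1 or lymph node library 2. For spleen over lymph node it was -0.32 (SE 0.13, adjusted p 0.0798 by edgeR), and with a replicate block it was called (adjusted p 0.0488).

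**Figure D1:**
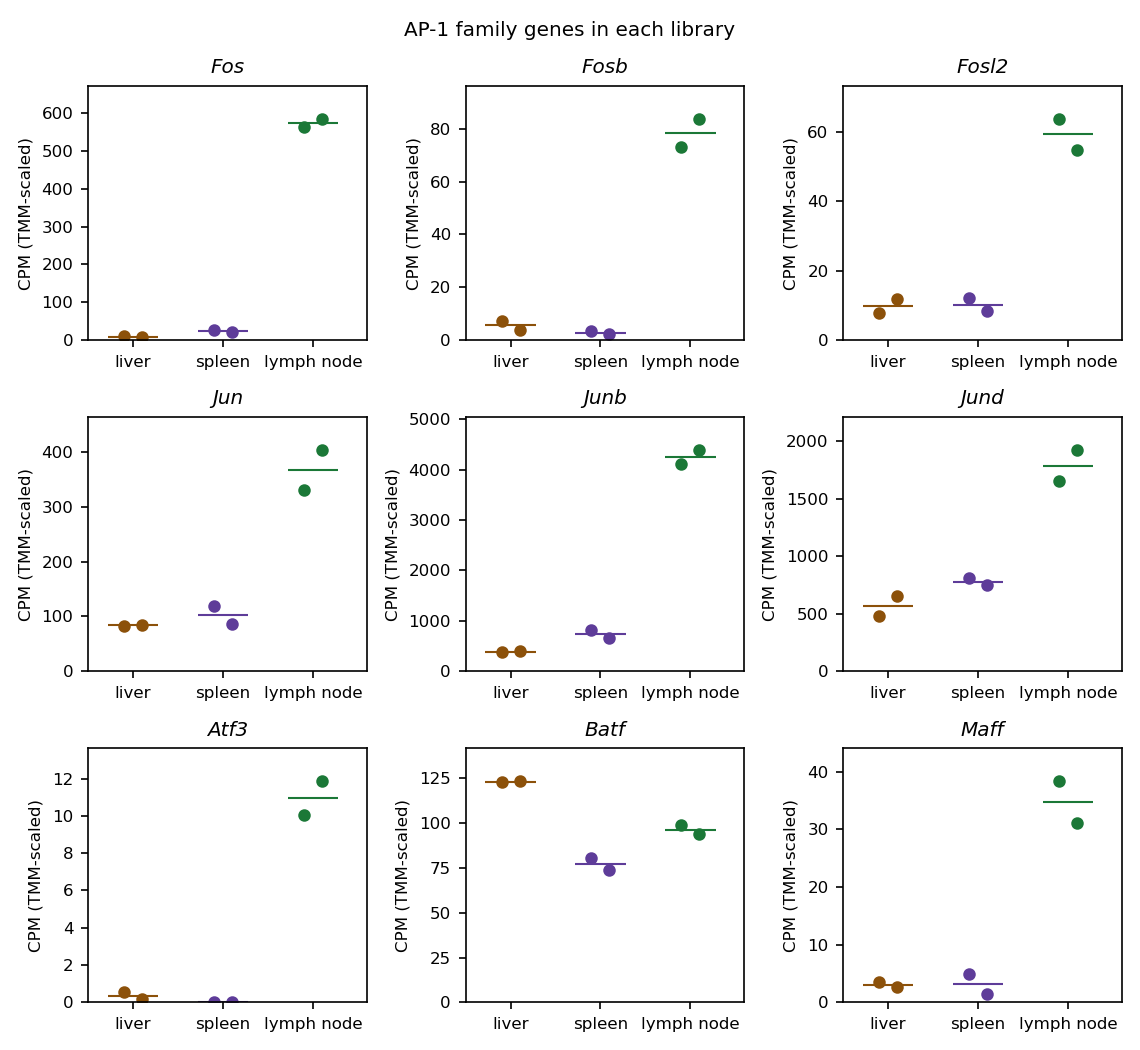
Level of each AP-1 family gene in each library (y axis, TMM-scaled CPM from 0, a separate scale for each gene) by organ (x axis); points are the 2 libraries and lines their mean. Fos, for example, is at 562 and 583 CPM in lymph node and at 26.3 and 22.8 in spleen, while Batf is highest in liver, with 123 CPM in both liver libraries.

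The counts are given over the 8 members other than Atf3, for the reason stated with it. All 8 were called between liver and lymph node (edgeR adjusted p below 0.05), where 37.5% of 10251 genes were called. Of these, 7 were higher in lymph node, as were 19.6% of all genes, and 1 in liver, as were 18.0%. Between spleen and lymph node 7 of 8 were called, each of them higher in lymph node, beside 18.2% of genes called, 10.3% higher in lymph node and 7.89% in spleen. The 2 comparisons share the lymph node libraries. Between liver and spleen 4 of 8 were called (Fos, Junb and Jund higher in spleen, Batf higher in liver), beside 25.9% of genes, 13.1% higher in spleen and 12.8% in liver. The median log2 fold change of the 8 was -3.03, -2.52 and -0.19 in the 3 comparisons, beside 0.01, 0.00 and 0.02 over all genes tested.

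**Figure D2:**
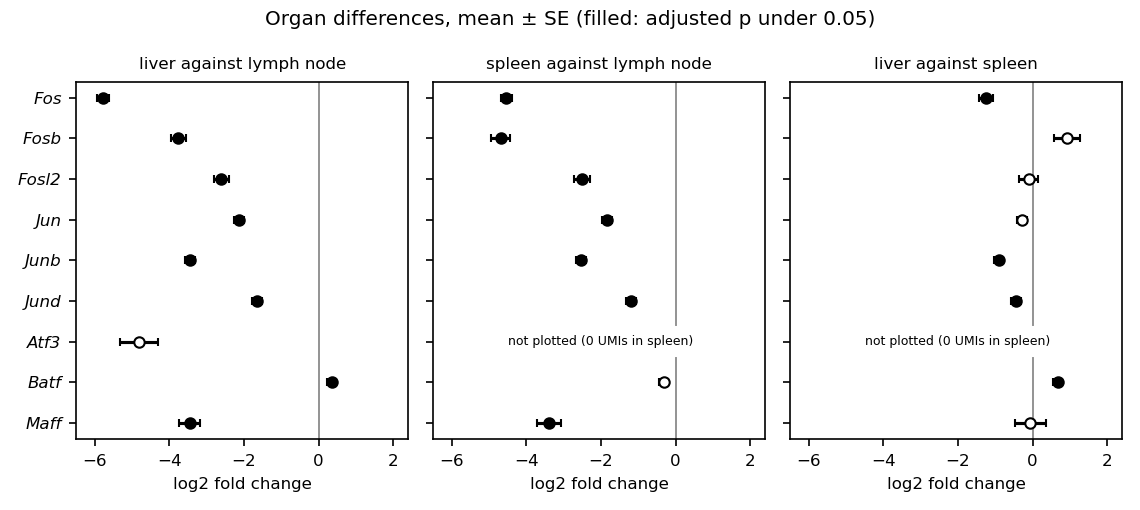
Log2 fold change (x axis) of each member (y axis) in the 3 comparisons of organs; points are edgeR estimates, bars their SE, and filled points have an adjusted p below 0.05, with Atf3 drawn open, as a description with no call, and not plotted against spleen, where it is at 0. Fos has the largest fold for liver over lymph node, -5.78, and Batf is the only member above 0 there (0.35).

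The levels were then read cell by cell. To compare libraries of different depth, each cell was thinned at random to 1000 UMIs, which left out 0 and 9 liver, 144 and 169 spleen and 265 and 488 lymph node cells with fewer. In liver, 51.3% (95% exact binomial interval 49.4% to 53.1%) and 58.8% (57.0% to 60.6%) of cells had at least 1 UMI of any of the 9 genes, and in spleen 70.8% (69.0% to 72.5%) and 65.8% (63.9% to 67.7%). In lymph node it was 96.6% (95.8% to 97.3%) and 96.2% (95.3% to 96.9%). These intervals cover counting error only. In lymph node most UMIs of the family were of Junb and Jund, so the share of cells need not hold for any single member. Without thinning, liver gave 89.3% and 88.6%, spleen 87.4% and 82.9% and lymph node 98.7% and 98.8%, with the liver cells the deepest.

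The whole distribution of family UMIs per cell was shifted in lymph node. Most of the family UMIs there were of Junb and Jund. Junb was at 4113 and 4384 CPM and Jund at 1649 and 1920 in the lymph node libraries, where all members summed to 6939 and 7565. The shift is therefore mainly that of Junb and Jund and does not stand for each member. The counts per cell include any UMIs from RNA free in the suspension, whose part in them was not tested. The median cell had 1 UMI of the family in each liver and spleen library and 5 in each lymph node library. Only 6.32% and 7.43% of liver cells and 18.2% and 13.2% of spleen cells had 3 or more, against 78.0% and 80.6% of lymph node cells. The lowest 10% of lymph node cells reached up to 1 UMI, a value that was the median of the other organs, and the highest cell had 33 and 32 UMIs against 7 to 10.

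**Figure D3:**
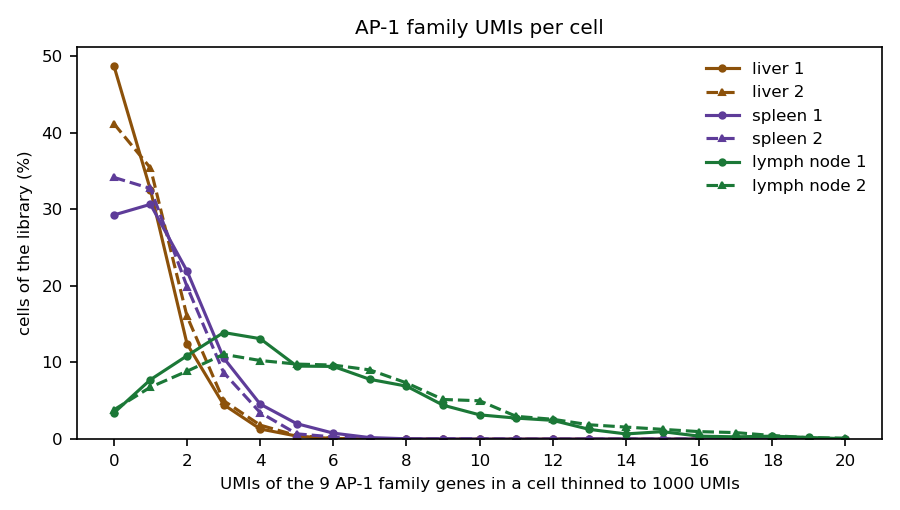
Share of cells of each library (y axis, %) by the number of UMIs of the 9 genes in a cell thinned to 1000 UMIs (x axis); circles with solid lines are the first library of each organ, triangles with dashed lines the other, and the axis ends at 20 UMIs. The liver and spleen curves fall from 0 or 1 UMI, whereas the lymph node curves peak near 3 UMIs and have a median of 5.

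Junb was found in most lymph node cells. It was detected in 22.3% and 24.6% of liver, 44.4% and 36.8% of spleen and 87.3% and 86.6% of lymph node cells. Junb was not Poisson within lymph node. Its Fano factor (variance over mean, 1 for a Poisson count) was 2.37 and 2.56 there, at means of 3.22 and 3.57 UMIs. It was 1.09 to 1.20 in liver and spleen, but at means of 0.274 to 0.647, and since the factor can grow with the mean the organs are not compared by it. In lymph node, 12.7% and 13.4% of cells had no UMI where a Poisson count of the same mean would give 4.01% and 2.82%. The 10% of lymph node cells with most Junb held 28.6% and 28.1% of its UMIs, where a Poisson count would give 20.9% and 20.1%.

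Fos was found in a minority of lymph node cells, and unevenly. It was detected in 0.607% and 0.666% of liver, 1.74% and 1.81% of spleen and 29.8% and 31.5% of lymph node cells. Without thinning, 41.2% and 40.2% of lymph node cells had a Fos UMI, against 1.68% to 3.37% in the other libraries. The top 10% of lymph node cells held 54.7% and 54.3% of Fos UMIs, where a Poisson count of the same mean would give 41.9% and 41.5%.

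Jund was detected in 27.7% and 36.2% of liver, 42.2% and 39.8% of spleen and 66.3% and 70.9% of lymph node cells, and Jun in 6.32% and 5.72%, 8.05% and 6.68%, and 20.1% and 22.7%. Both were above the other organs in both lymph node libraries. Batf was detected in 7.85% and 7.50% of liver, 5.11% and 5.07% of spleen and 7.04% and 7.12% of lymph node cells, with a Fano factor of 0.98 to 1.07 in the 6 libraries. Fosb reached 4.85% and 6.27% of lymph node cells, Fosl2 4.68% and 4.11%, Maff 2.82% and 2.50% and Atf3 0.759% and 0.847%. As a gauge of the method, Ptprc (CD45) gave Fano factors of 0.967 to 1.08 and Arhgdib 1.01 to 1.08 in the 6 libraries, while Actb gave 8.02 to 22.1.

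To ask which cells held the UMIs, the cells were clustered without the 9 members, other AP-1 genes, immediate early genes or sex-linked genes. Clusters were called iNKT1-like, iNKT17-like, RTE-like (recent thymic emigrants), Ifit-like (interferon response) or cycling from their markers, and need not match the study's names. In the lymph node libraries, iNKT17-like cells (863 and 1030 cells) were 32.7% and 36.2% of cells, and cluster 2, which had no name and was led by Nrgn, Ccl1 and Pdcd1, was 44.2% and 41.2%. The summed family was highest in lymph node in each of the 10 clusters with at least 10 lymph node cells. Junb and Jund made up most of this sum in lymph node. The mean of the summed family in lymph node was 2.21 UMIs per 1000 in the lowest (cycling) and 6.30 in the highest (cluster 2). The highest cluster of spleen had 1.73 and that of liver, a small cluster of B cell and myeloid character, also 1.73, so the lymph node range lay above both.

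Junb ranged from 0.875 UMIs per 1000 in cycling cells to 3.95 in cluster 2 of lymph node, and its highest cluster in spleen (iNKT17-like) had 0.722. Fos ranged from 0.140 (cycling) to 0.711 (iNKT17-like) in lymph node, and reached at most 0.089 in a spleen cluster. With the 2 libraries of an organ pooled, the lowest lymph node cluster was above the highest cluster of the other organs for both genes. By library the ranges met for Junb, since iNKT17-like cells of spleen library 1 (53 cells) had 0.981 against 0.905 and 0.849 in cycling cells of the lymph node libraries, and for Fos they nearly met, at 0.135 in iNKT17-like cells of spleen library 2 (37 cells) and 0.137 in cycling cells of lymph node library 2. Cycling cells were at the bottom of lymph node for Jund as well, with 0.912, and there the ranges met, since unnamed cluster 6 of spleen had 0.920.

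**Figure D4:**
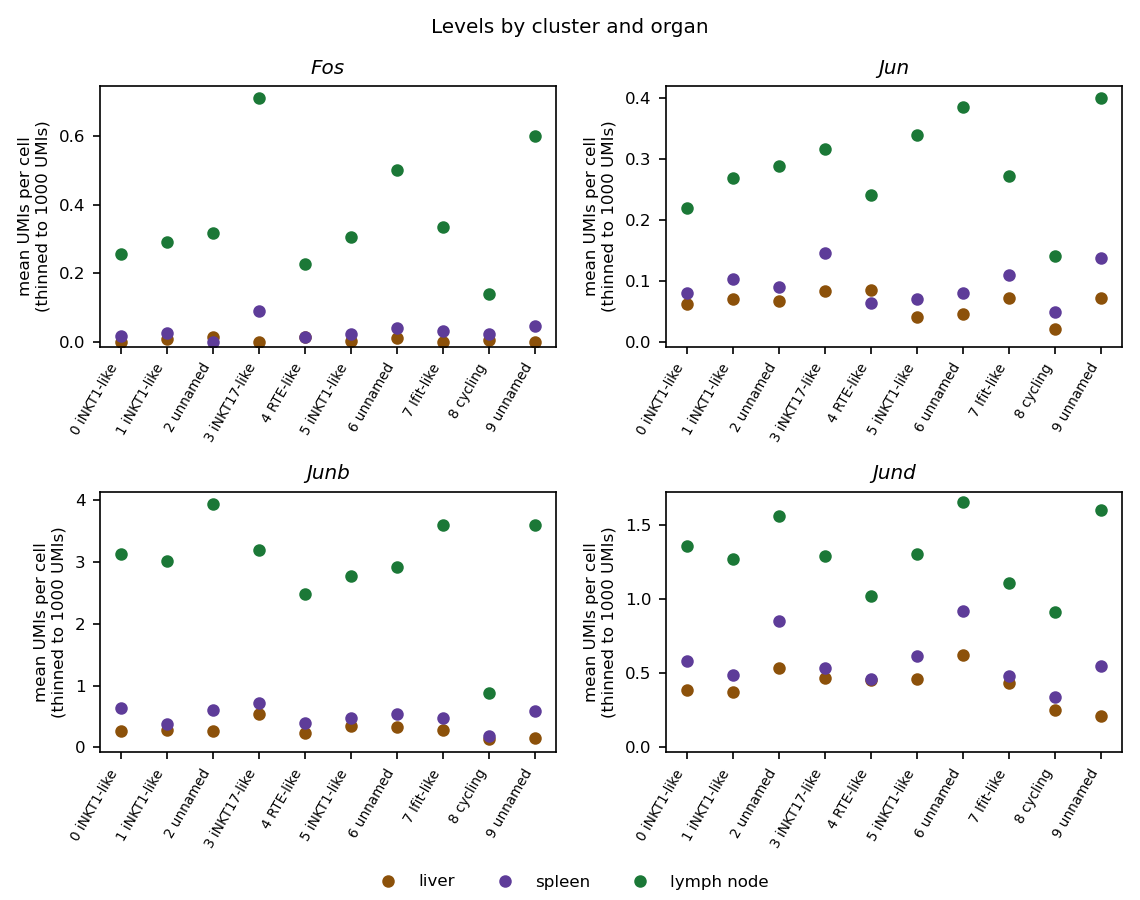
Mean UMIs per cell thinned to 1000 UMIs (y axis) of Fos, Jun, Junb and Jund in each of the 10 clusters with at least 10 cells in lymph node (x axis), coloured by organ; each point pools the cells of 2 libraries, with no test. Within each cluster the lymph node point lies above those of liver and spleen, for example at 0.875 for Junb in cycling cells, and Fos stands highest in iNKT17-like cells of lymph node (0.711).

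Within iNKT1-like cells, the organs were compared again on UMIs summed per class and library, given as CPM of that class without TMM scaling. Cluster 1 held most of these cells in liver and cluster 0 most in spleen, with only 156 and 253 cells in lymph node. Fos was at 11.9 and 8.90 CPM in liver, with 25.1 and 20.8 in spleen, while lymph node had 265 and 432, and Junb at 415 and 419, 914 and 734, and 3929 and 4497. The log2 fold change for liver over lymph node was -5.15 for Fos (SE 0.24, adjusted p 1.14e-43 by edgeR) and -3.40 for Junb (SE 0.15, adjusted p 1.09e-47). In these cells 8 members were tested, of which Fosb and Maff passed the filter only through lymph node. Of the other 6, 5 were called between liver and lymph node, each higher in lymph node, beside 7.74% of 9448 genes called and 4.58% higher in lymph node. Between spleen and lymph node 5 of 6 were called in the same direction, beside 2.28% called and 1.70% higher in lymph node. The exception was Batf in both. Of the 5, Fosl2 lost its call against both organs when the members and immediate early genes took part in the clustering, when nothing was regressed out or without lymph node library 2, and against spleen also without spleen library 2 or lymph node library 1, with DESeq2 or at a finer clustering. Fos, Jun, Junb and Jund were called in each of those fits. Between liver and spleen 5 of the 6 were called (Fos, Jun, Junb and Jund higher in spleen, Batf in liver), beside 23.4%, and the count fell to 2 without liver library 1 and to 3 without either spleen library or with DESeq2.

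In iNKT17-like cells, which were rare in liver (23 and 37 cells) and spleen (53 and 37 cells), 5 members were tested, of which Fos and Fosb passed the filter only through lymph node. The other 3 (Jun, Junb and Jund) were called higher in lymph node against liver (beside 14.8% of 1910 genes called and 7.12% higher in lymph node) and against spleen (beside 5.60% and 3.30%). Fos was at 151 and 23.7 CPM in liver, with 74.8 and 96.2 in spleen, while lymph node had 975 and 916, so the liver libraries were far apart and still below lymph node. The liver values rest on 11 and 2 UMIs, and in thinned cells 0 of the 23 and 37 liver cells had a Fos UMI. Junb was called at a log2 fold change of -2.58 for liver over lymph node (SE 0.18, adjusted p 3.47e-18 by edgeR) and -2.23 (SE 0.17, adjusted p 5.48e-16) with spleen in place of liver. Between liver and spleen 0 of these 3 were called by edgeR, beside 3.77% of genes, and 0 by DESeq2, which gave Jun no adjusted p. In edgeR 0 of the 3 had an unadjusted p under 0.05.

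RTE-like, Ifit-like and cycling cells were tested after the cluster sizes had been seen. Fos in all 3 classes, and Fosb in cycling cells, passed the filter only through lymph node, so they are left out of these counts, which rest on Jun, Junb, Jund and Batf. Against liver, 3 of 4 were called in RTE-like (beside 8.95% of genes called and 4.35% higher in lymph node), 3 of 4 in Ifit-like (beside 11.0% and 5.46%) and 4 of 4 in cycling cells (beside 14.5% and 7.37%), the last including Batf, higher in liver. Against spleen it was 3 of 4 (beside 2.82% and 2.08%), 3 of 4 (beside 2.62% and 1.80%) and 3 of 4 (beside 1.86% and 1.17%). In each of these classes Jun, Junb and Jund were called higher in lymph node against both organs by edgeR. The call of Jun against spleen was lost without spleen library 2 in Ifit-like and in cycling cells, and DESeq2 did not call Jun in either class against either organ. In cycling cells against liver, the call of Batf was lost without liver library 1 or lymph node library 2 or with DESeq2. In cycling cells, where the levels were lowest, Junb was at 192 and 181 CPM in liver, with 245 and 240 in spleen, while lymph node had 1102 and 1052. Its log2 fold change there was -2.56 for liver over lymph node (SE 0.17, adjusted p 8.01e-18 by edgeR).

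Lymph node cells also differed among themselves. Fos and Fosb were higher in iNKT17-like than in iNKT1-like cells of the same lymph node libraries, with log2 differences of 1.31 (SE 0.12, adjusted p 3.00e-26) and 2.11 (SE 0.37, adjusted p 8.24e-07), in an edgeR fit with library as a block that was added after the levels had been seen. These 2 of 9 members were called, beside 6.99% of genes. The Fosb level in iNKT1-like cells of the lymph node libraries rests on 4 and 10 UMIs. iNKT17-like cells held 61.1% and 60.6% of the Fos UMIs and 73.6% and 67.7% of the Fosb UMIs of the lymph node libraries, against 34.3% and 37.3% of Junb UMIs. Cluster 2 held 27.7% and 25.2% of Fos UMIs and 47.3% and 45.0% of Junb UMIs. In these 2 groups the share of Junb UMIs was close to that of cells, while RTE-like cells were 9.51% and 7.34% of cells and held 6.60% and 5.48% of Junb UMIs. Cluster 2 held 40.1% and 37.3% of the UMIs of all genes, so its Junb share was above its share of all UMIs. For iNKT17-like cells the share of all UMIs was 34.3% and 38.1%. Fos and Fosb UMIs lay mostly in iNKT17-like cells. Whether the difference between organs itself depended on the class was tested as an interaction, where Junb was the 1 member called between liver and lymph node, of the 7 that had UMIs in every organ of both classes, beside 0.721% of genes.

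**Figure D5:**
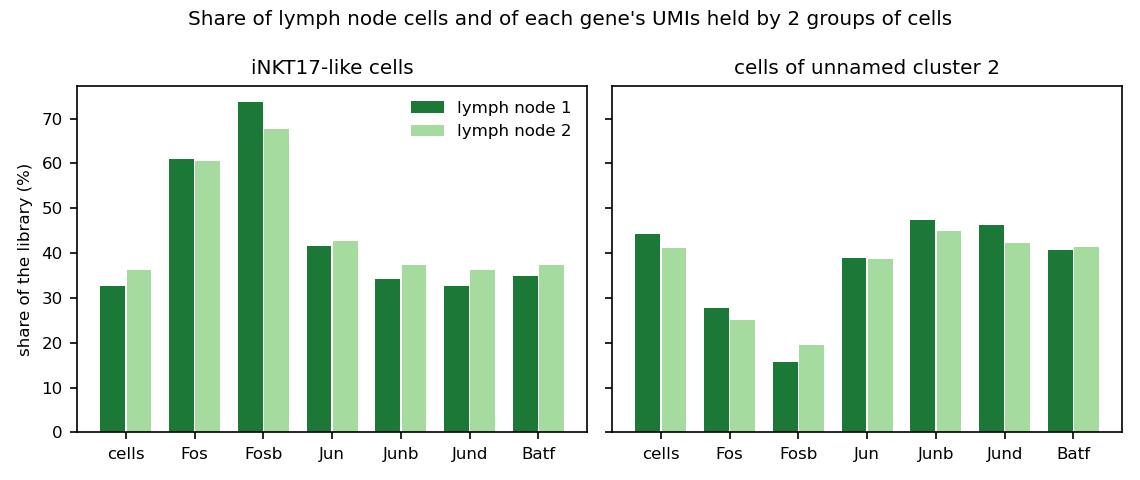
Share (y axis, %, from 0) of the cells and of the UMIs of 6 members that iNKT17-like cells (left) and cells of unnamed cluster 2 (right) hold in each lymph node library. For iNKT17-like cells the Fos bars (61.1% and 60.6%) and Fosb bars (73.6% and 67.7%) stand far above the share of cells (32.7% and 36.2%), while the Junb bars (34.3% and 37.3%) are close to it.

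RNA free in the suspension can put UMIs of a gene into droplets of cells that do not express it. No class here is known to lack AP-1 genes, so 14 markers of iNKT17-like cells served as a gauge in RTE-like cells of lymph node, where they summed to 10.7% and 9.21% of their level in iNKT17-like cells. Fosb was at 8.75% and 11.9% of its iNKT17-like level in thinned cells, on too few UMIs to place it against the gauge, and over all UMIs of the class it was at 25.5 and 36.8 CPM (9 UMIs in each library) against 153 and 147 in iNKT17-like cells. Fos was at 27.1% and 38.0%, Jun at 78.2% and 78.3%, Junb at 72.5% and 87.0% and Jund at 79.4% and 83.5%. These values are above the gauge, but its markers mark a single class, whereas Fos, Jun, Junb and Jund had UMIs in every lymph node cluster. The gauge therefore cannot place the part of free RNA in these genes, which was not tested.

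Within lymph node cells the members were only weakly detected together. Junb was found in 92.2% and 94.2% of cells with a Fos UMI and in 85.2% and 83.1% of cells without, and Fosb in 8.49% and 9.95% against 3.30% and 4.58%. For Batf the shares hardly moved, with 7.21% and 6.99% against 6.96% and 7.18%. Cells with 4 or more members were 10.1% and 13.0%, where independent detection would give 8.67% and 10.3%. Over the thinned lymph node cells (2373 and 2360), the Pearson correlation of Fos with Junb was 0.157 and 0.201 and with Fosb 0.127 and 0.121, which are weak in sparse counts and are no finding. Outside the family the genes highest by the lower of the 2 values were Lmo4 (0.154 and 0.119), Sepp1 (0.136 and 0.119), Il7r (0.119 and 0.117), Tmem176a (0.104 and 0.0956) and Klf4 (0.124 and 0.0951). The cells of a library share depth and free RNA.

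Over the 6 libraries, patterns were compared by the root mean square difference of mean-centred log2 CPM among 10178 genes. The genes nearest to Fos were Sdc1 (0.13), Gm17056 (0.33), Klf4 (0.35), Kcnk1 (0.47) and Mycn (0.55). Of these, Gm17056, Klf4, Kcnk1 and Mycn passed the filter on low counts only through lymph node. Their likeness to Fos is a description only. Sdc1, which encodes syndecan-1 and is among the markers used for iNKT17-like cells, was at 2.41 and 1.62 CPM in liver, with 5.99 and 4.90 in spleen, while lymph node had 97.4 and 107. The nearest to Junb were Ciart (0.13), Tiparp (0.14), Ppp1r15a (0.18), Aqp3 (0.20) and Avpi1 (0.21). Aqp3 is also among the markers used for iNKT17-like cells. Ppp1r15a, a stress-response regulator of translation, was at 45.5 and 61.3 CPM in liver, with 121 and 71.5 in spleen, while lymph node had 602 and 629.

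The lists that follow leave out of their counts the genes that passed the filter only through lymph node. Of 29 immediate early and dissociation-response genes tested outside the family, Klf4 and Nr4a2 were such genes. Of the other 27, 18 were higher in lymph node than in liver, beside 19.6% of all genes, and 3 were higher in liver, beside 18.0%. Against spleen 21 were higher in lymph node, beside 10.3%, and 0 in spleen, beside 7.89% (edgeR, also 0 at an unadjusted p under 0.05). Their summed level was 7731 to 8590 CPM in liver, 7111 to 7939 in spleen and 12496 to 12781 in lymph node. Nr4a2, an orphan nuclear receptor induced by T cell receptor signals, was at a mean of 0.0669 CPM in liver, with 0.809 in spleen and 12.1 in lymph node, too few UMIs in liver for a fold. Klf4 was at 1.98, 2.99 and 74.2 CPM, and Dusp1, also on this list, is given with the phosphatases. The part of dissociation, of cell sorting and of the sex-linked difference between the libraries in the members' levels was not tested.

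Of 22 MAP kinase inputs to AP-1, the kinases and factors upstream, 5 were called higher in lymph node and 3 in liver (beside 19.6% and 18.0% of all genes), with a median log2 fold change of 0.12, and against spleen 5 were higher in lymph node (beside 10.3%), 2 in spleen (beside 7.89%) and 15 were not called. Their share called between liver and lymph node was thus near that of all genes. Gadd45b and Gadd45g, which activate the stress kinase pathway through MEKK4, and Elk3, a ternary complex factor, had the largest folds, with log2 values of -1.96 (SE 0.15, adjusted p 1.15e-12), -1.62 (SE 0.18, adjusted p 7.82e-09) and -1.27 (SE 0.13, adjusted p 2.63e-09 by edgeR) for liver over lymph node. Of 14 MAP kinase phosphatases and feedback genes, Dusp4, Dusp16 and Spry1 passed the filter only through lymph node. Of the other 11, 5 were higher in lymph node and 2 in liver, beside the same 19.6% and 18.0%, with a median of -0.77. Against spleen 6 were higher in lymph node, beside 10.3%, and 1 in spleen, beside 7.89%. Dusp1, the phosphatase that inactivates p38 and JNK, was at 70.9 and 51.9 CPM in liver, with 140 and 114 in spleen, while lymph node had 1003 and 1122 (log2 fold change -4.11, SE 0.15, adjusted p 1.98e-18 by edgeR). Dusp4 was at a mean of 0.698 CPM in liver, with 0 in spleen and 9.98 in lymph node, and the ERK pathway inhibitor Spry1 at 0.659, 0.706 and 5.20.

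Of the other AP-1 and related basic leucine zipper genes, 19 of 25 listed were tested, of which Nfil3 passed the filter only through lymph node. Of the other 18, 4 were higher in lymph node, 1 in liver and 13 were not called. All genes had 19.6% higher in lymph node and 18.0% in liver, and the median log2 fold change of the 18 was 0.02. Against spleen 5 were higher in lymph node, beside 10.3%, 1 was higher in spleen, beside 7.89%, and the median was -0.21. Nfil3 was at a mean of 3.09 CPM in liver, with 1.89 in spleen and 16.7 in lymph node. Cebpb was at 87.8, 144 and 399 (log2 fold change -2.18 for liver over lymph node, SE 0.12, adjusted p 6.31e-16) and Crem at 29.1, 19.8 and 48.8 (-0.75, SE 0.16, adjusted p 0.000341, both by edgeR). Of 15 partner factors 2 were higher in lymph node and 8 in liver, beside 19.6% and 18.0%, and against spleen 2 were higher in lymph node and 2 in spleen, beside 10.3% and 7.89%. Irf8 was higher in liver (log2 fold change 2.11 for liver over lymph node, SE 0.17, adjusted p 6.76e-12 by edgeR). So was Irf4, the partner of Batf (1.41, SE 0.32, adjusted p 0.000636 by edgeR).

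Of 15 reported AP-1 targets tested, Il17a was detected only in the lymph node libraries, at a mean of 6.01 CPM. Of the other 14, 5 were higher in lymph node and 5 in liver, where all genes had 19.6% and 18.0%, and against spleen 9 were higher in lymph node, beside 10.3%, and 3 in spleen, beside 7.89%. Il7r, the receptor for interleukin 7, was at a mean of 260 CPM in liver, with 565 in spleen and 1121 in lymph node (log2 fold change -2.11, SE 0.12, adjusted p 1.06e-15 by edgeR), and Mmp9, a matrix protease, was at 75.1, 12.8 and 2.61 (4.84, SE 0.26, adjusted p 7.20e-16). As a comparison, 12 genes taken as evenly expressed summed to 62781 to 71495 CPM in liver, 62469 to 62781 in spleen and 63373 to 64736 in lymph node. Of these 12, 5 were called higher in liver and 3 higher in lymph node, beside 18.0% and 19.6% of all genes, with Eef1a1 at a log2 fold change of 1.48 (SE 0.16, adjusted p 3.70e-08), Actb at -0.94 (SE 0.14, adjusted p 3.28e-06) and Cd3e at -0.75 (SE 0.13, adjusted p 1.17e-05) for liver over lymph node. Against spleen 1 of the 12 was higher in lymph node and 3 in spleen, beside 10.3% and 7.89%.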

How the data were processed

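UMI counts per gene and cell were deposited by the authors as 6 unnormalised matrices, 2 libraries for each of 3 organs, made with Cell Ranger 3.1.0 and mm10 per the submitters' processing notes. Of 16587 barcodes, 16532 were kept (300 to 4000 genes, at most 15% mitochondrial UMIs). No doublet caller was run, and leaving out the 2% of cells with most UMIs (333) was an alternative. Ribosomal and haemoglobin genes (111) were left out of the sums per library. These sums went into edgeR 4.0.16 under R 4.3.3 (genes kept by filterByExpr at a minimum count of 10, TMM, robust quasi-likelihood test, 6 libraries in 1 fit, Benjamini-Hochberg adjustment over all genes tested), and DESeq2 1.42.0 was an alternative. The code was tested on simulated data. A permutation test of 2 against 2 libraries cannot give a p below 0.333, so none was used. Cells were clustered with scanpy 1.11.5 and leidenalg 0.10.2, with UMI count and mitochondrial share regressed out. A class sum needed 10 cells.

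The members and gene lists were chosen with earlier results of these data known. From 23.4% to 34.4% of UMIs were in the genes left out. Named from each list were the 3 tested genes with the largest absolute log2 fold change for liver over lymph node, and 1 of these genes is not reported here. Named as nearest to Fos or Junb were the 5 genes with the smallest difference over libraries, and, within lymph node, the 5 with the highest correlation with Fos among genes in at least 5% of cells. The fits in RTE-like, Ifit-like and cycling cells and the contrast within lymph node were added after seeing the data.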

Additional observations from a re-analysis of the deposited data

Results flagged for a closer look

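The Junb difference between liver and lymph node differed between classes of cells. It was smaller in iNKT17-like than in iNKT1-like cells, with a difference of the log2 fold changes of 0.68 (SE 0.17, adjusted p 0.00951 by edgeR for the interaction of class and organ). In iNKT17-like cells Junb stood at 743 and 640 CPM (liver) and 3999 and 4234 (lymph node), against 415 and 419 (liver) and 3929 and 4497 (lymph node) in iNKT1-like cells, so the classes differed in liver and overlapped in lymph node. The liver iNKT17-like sums rest on 23 and 37 cells. Atf3 and Maff had no UMIs in an organ of at least 1 of the classes and are not counted here. Of the other 7 members 1 was called in this interaction, beside 0.721% of 8466 genes, and 0 of 7 were called by edgeR for spleen against lymph node (beside 0.472%) or liver against spleen (beside 0.165%). At an unadjusted p under 0.05 these were 1 (Jund) and 2 (Junb and Jund). For liver against lymph node they were 2 (Fos and Junb). The Fos difference there was 1.56 (SE 0.51, edgeR p 0.00209, adjusted p 0.170) and was not called. Its liver iNKT17-like sums rest on 11 and 2 UMIs. No other tool was run for the interaction.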

How the results depend on the processing

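Of 570 values recomputed under an alternative, 521 kept their direction and side of the threshold, or stayed within the spread or 1.5 times for values without a test. With 1 library left out, the count of members called, leaving out those that passed the filter only through lymph node, was 7 to 8 between liver and lymph node, 7 to 7 between spleen and lymph node and 3 to 5 between liver and spleen. In iNKT1-like cells it was 4 to 5, 4 to 5 and 2 to 5. For liver and spleen against lymph node it was 3 to 3 and 3 to 3 in iNKT17-like and in RTE-like, 3 to 3 and 2 to 3 in Ifit-like and 3 to 4 and 2 to 3 in cycling cells. DESeq2 gave 3 between liver and spleen in iNKT1-like cells and 2 between liver and lymph node in cycling cells. Class sizes moved with the clustering. At resolution 0.3, a coarser clustering, 0 cells were RTE-like in any library. RTE-like cells of liver were 117 and 195, and 36 and 66 with nothing regressed out. Those of spleen were 401 and 321, and then 606 and 547. The iNKT1-like cells of lymph node (156 and 253) were then 99 and 71. Resolution 0.3 gave 197 and 285 of them and resolution 1.0 gave 96 and 159. The share of cells with a member UMI followed the depth of thinning: for liver, spleen and lymph node in that order it was 34.5%, 46.6% and 88.5% at 500 UMIs, 68.4%, 78.6% and 98.6% at 1500 UMIs, and 89.0%, 85.2% and 98.8% with no thinning. For liver over spleen, where neither gene was called, Fosl2 turned to 0.0075 (log2) with libraries thinned to the smallest total, and with 1 library left out its log2 fold change ran from -0.40 to 0.21 and that of Maff from -0.64 to 1.11. The causes of these changes were not tested. With a replicate block 8, 8 and 4 of the 8 members other than Atf3 were called in the 3 comparisons, Batf being the added call for spleen. The deviations of same-numbered libraries correlated at 0.122 to 0.200 over 4508 genes, and neither this nor the labels settle whether the numbers pair the libraries. Over all genes, DESeq2 called 2359 against 3848 in edgeR between liver and lymph node, 1022 against 1869 between spleen and lymph node and 1332 against 2658 between liver and spleen. Without lymph node library 2 edgeR called 2403 and 1015 for lymph node against liver and spleen, and between liver and spleen 1385 without liver library 1 and 1392 without spleen library 2. Atf3 was below the filter on low counts in the fits of single classes.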
